A study of Homo sapiens with 18 samples.

Results

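The 10 snoRNA host transcripts described here were measured in BxPC-3 cells, an established pancreatic adenocarcinoma line, over 18 mRNA-seq libraries. They are the rows of the deposited gene count table whose Ensembl identifiers map to SNHG1, SNHG5, SNHG6, SNHG7, SNHG8, SNHG12, SNHG15, SNHG16, GAS5 and ZFAS1, and they were chosen by name. All 10 were found among the 58395 identifiers of the table and all 10 were among the 16794 genes tested. The series compared 2 ligands with a PBS vehicle. Hepatocyte growth factor (HGF) was given at 80 ng/ml for 4 h or 1 h, macrophage-stimulating protein (MSP) at 100 ng/ml for 4 h or 1 h, and PBS for 4 h or 1 h, with 3 libraries in each of the 6 groups. All cells were 1 line, with no genetic change named in the labels, grown in RPMI with 10% fetal bovine serum and antibiotics. The labels do not say that the 3 libraries of a group came from separate cultures, so each p-value gauges no more than the spread of these samples, which may be technical. In such bulk RNA, fewer expressing cells and less RNA per cell cannot be told apart.

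Most human small nucleolar RNAs (snoRNAs) are cut out of the introns of host genes. Box C/D snoRNAs, named SNORD, guide 2-prime-O-methylation of ribosomal RNA, and box H/ACA snoRNAs, named SNORA, guide its pseudouridylation. The spliced exons of the non-coding hosts carry no long reading frame. Many begin with a C followed by a run of pyrimidines, the mark of the terminal oligopyrimidine class of transcripts whose translation follows growth signals, and several are known to be degraded by nonsense-mediated decay when they are translated. HGF acts through the receptor kinase MET and MSP through the related kinase RON (MST1R).

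The pyrimidine run is the feature this family is known for, so the bases around the annotated start are shown for the 8 members with an entry in the RefSeq promoter table (build GRCh38.p14). SNHG6 and SNHG15 are named only. Each line gives 25 bases before the start, the first transcribed base and 25 bases after it, on the gene's own strand. The capitals mark the longest run of at least 5 C or T that begins with C. Where runs tied in length, the one nearest the annotated start was marked, as in SNHG5, which also holds ccttc further on.
SNHG1 (chr11:62855860-62855910, minus strand): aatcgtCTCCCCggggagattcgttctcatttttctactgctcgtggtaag
SNHG5 (chr6:85678708-85678758, minus strand): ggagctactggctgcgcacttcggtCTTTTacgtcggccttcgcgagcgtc
SNHG7 (chr9:136728159-136728209, minus strand): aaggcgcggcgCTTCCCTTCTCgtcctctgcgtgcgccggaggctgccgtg
SNHG8 (chr4:118278737-118278787, plus strand): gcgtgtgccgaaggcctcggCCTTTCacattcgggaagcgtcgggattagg
SNHG12 (chr1:28581848-28581898, minus strand): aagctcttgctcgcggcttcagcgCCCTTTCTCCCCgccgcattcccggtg
SNHG16 (chr17:76557739-76557789, plus strand): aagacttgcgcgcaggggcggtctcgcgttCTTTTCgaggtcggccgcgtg
GAS5 (chr1:173869020-173869070, minus strand): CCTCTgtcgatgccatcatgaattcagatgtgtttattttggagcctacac
ZFAS1 (chr20:49278617-49278667, plus strand): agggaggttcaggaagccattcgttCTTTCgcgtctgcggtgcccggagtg
All 8 windows held such a run, as did 55.5% of 35116 RefSeq promoters searched in the same window. In SNHG5 and ZFAS1 the run began at the annotated first base, in SNHG12 at the base before it and in SNHG8 5 bases before it. In SNHG16 it began 5 bases after the annotated first base. The runs of SNHG7, SNHG1 and GAS5 lay 14, 19 and 25 bases upstream, and the RefSeq start of GAS5 itself lies upstream of the gene's start in GENCODE 29.

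The whole window from 250 bases before the start is shown for SNHG12, which rose 4 h after HGF, and for SNHG7, which fell. Capitals mark TATATAA in SNHG12 and CACGTG in SNHG7.
SNHG12 (chr1:28581824-28582123, minus strand): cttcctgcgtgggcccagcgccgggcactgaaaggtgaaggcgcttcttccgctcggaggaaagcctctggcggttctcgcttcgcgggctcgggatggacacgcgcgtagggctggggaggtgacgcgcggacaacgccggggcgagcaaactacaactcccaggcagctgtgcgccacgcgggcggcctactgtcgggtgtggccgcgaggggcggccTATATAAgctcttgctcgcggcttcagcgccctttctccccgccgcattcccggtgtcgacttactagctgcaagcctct
SNHG7 (chr9:136728135-136728434, minus strand): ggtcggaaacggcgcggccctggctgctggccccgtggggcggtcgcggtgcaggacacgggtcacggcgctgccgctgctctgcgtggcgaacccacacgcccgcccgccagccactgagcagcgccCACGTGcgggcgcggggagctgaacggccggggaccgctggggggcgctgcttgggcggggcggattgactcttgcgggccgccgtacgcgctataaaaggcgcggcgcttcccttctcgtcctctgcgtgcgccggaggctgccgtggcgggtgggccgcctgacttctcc
Motifs were searched on both strands of the 300-base windows. The TATA-type motif TATATAA was found in 3 of the 8 (SNHG5, SNHG12 and ZFAS1) and in 2.57% of the 35116 promoters. In ZFAS1 it was matched on both strands, in overlapping positions. Only this exact string was searched, so the related tataaaa shortly before the SNHG7 start was not counted. The E-box CACGTG was found in SNHG7 alone of the 8 and in 7.26% of promoters. The AP-1 motif TGACTCA was in 0 of the 8 windows and in 4.95% of promoters. For the cAMP response element TGACGTCA these were 0 of the 8 and 1.85%. The window of SNHG16, which also rose at 4 h, held none of these motifs, and SNHG5, which held TATATAA, fell. A link between motif and direction was not tested.

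Library totals ran from 30556613 to 48477215 counts, and the members had between 162 (SNHG12) and 5962 counts (SNHG5) in a library. All 7 ductal epithelial markers checked, KRT19 and EPCAM among them, were detected, with summed levels of 5505 to 6504 CPM (depth-scaled counts). Summed markers of other cell types were far lower, and in part lower 4 h after HGF. Fibroblast markers (6 genes) summed to 12.4 to 13.4 CPM in 4 h HGF libraries and 15.9 to 18.5 CPM in 4 h vehicle libraries. Leukocyte markers (5 genes) summed to 1.60 to 2.19 CPM in 4 h HGF libraries and 2.72 to 3.06 CPM in 4 h vehicle libraries. Endothelial markers (3 genes) summed to 2.40 to 2.82 CPM in 4 h HGF libraries and 7.52 to 8.15 CPM in 4 h vehicle libraries. COL1A2 had at most 2 counts in a library and PDGFRB and PTPRC at most 4. Others were detected in every library, COL1A1 with 255 to 512 counts, COL3A1 with 85 to 230 and VWF with 31 to 276. The part of all these markers in the results below was not tested. Mitochondrially encoded genes took 6.17% ± 0.053 of counts in 4 h HGF libraries, 8.39% ± 0.032 in 4 h MSP libraries and 8.82% ± 0.14 in 4 h vehicle libraries (SD, n = 3 each). At 1 h the shares were 7.94% ± 0.20 in HGF, 9.13% ± 0.19 in MSP and 9.18% ± 0.24 in vehicle libraries (SD, n = 3 each), and the part of this shift in the results was not tested.

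Per kilobase of merged exons, ZFAS1 was the highest member in 1 h vehicle libraries, at 44.9 ± 0.68 CPM per kb (SD, n = 3). SNHG5 followed at 40.0 ± 0.95 CPM per kb and SNHG6 at 36.1 ± 1.1 CPM per kb. GAS5 (23.3 ± 0.67 CPM per kb) and SNHG8 (21.8 ± 1.7 CPM per kb) were neighbours whose levels did not differ beyond their spread. SNHG1 (8.67 ± 0.17), SNHG16 (7.87 ± 0.28) and SNHG7 (6.75 ± 0.75) formed a middle range in CPM per kb. SNHG15 (3.41 ± 0.58) and SNHG12 (1.28 ± 0.079) were lowest, in the same unit. With the longest annotated transcript as the length instead, SNHG5 ranked above ZFAS1 and SNHG7 moved up to sixth place, above SNHG1 and SNHG16. Together the 10 members took 0.0488% ± 0.0021 of counts in 4 h HGF libraries, 0.0559% ± 0.0029 in 4 h MSP libraries and 0.0550% ± 0.0010 in 4 h vehicle libraries (SD, n = 3 each).

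By 4 h after HGF the 10 transcripts had moved in both directions. SNHG15, SNHG16 and SNHG12 rose 2.65-fold, 2.26-fold and 1.75-fold over vehicle, and SNHG1 and ZFAS1 rose 1.18-fold each with trimmed-mean (TMM) scaling, rises that were called with DESeq2 and its size factors too but not with library totals. SNHG7, SNHG8, GAS5 and SNHG5 fell to 0.651, 0.652, 0.810 and 0.862 times the vehicle level. SNHG6 did not pass the test. In edgeR's quasi-likelihood fit, adjusted over all genes by the method of Benjamini and Hochberg, 5 members were therefore higher and 4 lower, where 67.9% of all genes tested were called (33.1% higher, 34.8% lower). HGF and vehicle libraries did not overlap for 9 of the 10 members, and for 70.8% of all genes tested. The members' median log2 fold change was 0.064, beside -0.059 over all genes. Scaled by library totals instead, 3 members were higher and 5 lower, where 21.2% of all genes were higher and 52% lower, and the median of all genes moved to -0.35.

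**Figure D1:**
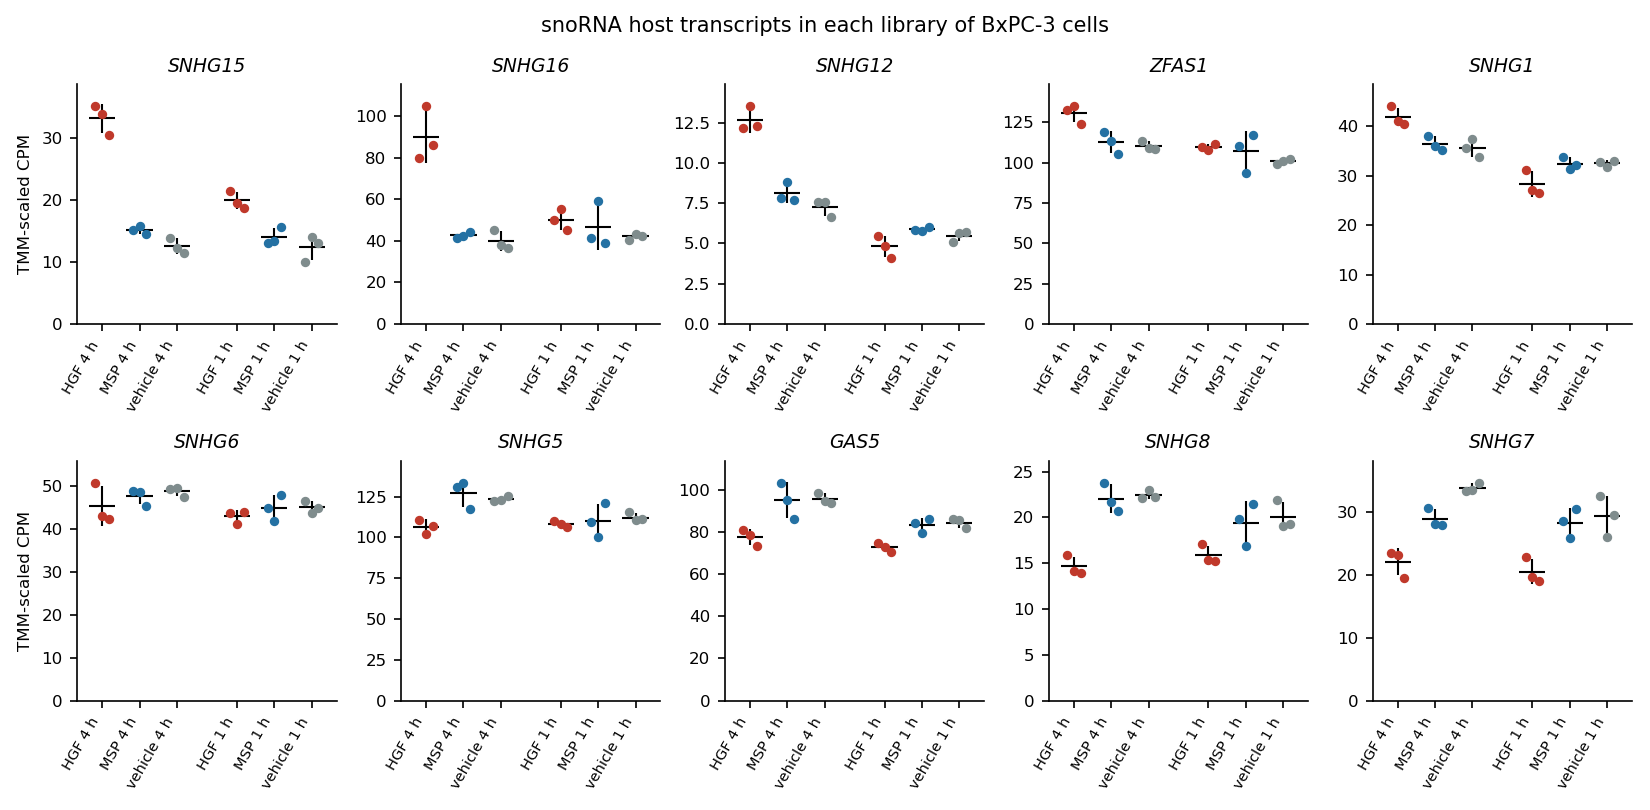
Level of each snoRNA host transcript (TMM-scaled CPM, linear axis from 0) in the 3 libraries of each group, 4 h groups at the left and 1 h groups at the right of each panel. Points are libraries, horizontal bars group means and vertical bars 1 SD (n = 3); the HGF points at 4 h lie above all vehicle points at 4 h for SNHG15, SNHG16, SNHG12, ZFAS1 and SNHG1, and below them for SNHG5, GAS5, SNHG8 and SNHG7.

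Among the hosts of box C/D snoRNAs, SNHG16 (ENSG00000163597, chr17:76557766-76565348, plus strand), host of SNORD1A, SNORD1B and SNORD1C, responded most. It stood at 79.8, 105 and 85.8 CPM in 4 h HGF libraries, against 45.3, 37.9 and 36.4 CPM in 4 h vehicle libraries. The lowest HGF library lay well above the highest vehicle library. This was a log2 fold change of 1.18 ± 0.15 (SE; adjusted p = 9.02e-06). At 1 h SNHG16 had 50.1, 55.1 and 45.3 CPM after HGF, against 40.6, 43.5 and 42.5 CPM in vehicle libraries. These groups did not overlap either, but the 1 h log2 fold change of 0.25 ± 0.15 (SE) did not pass the test (adjusted p = 0.304), and did pass when only the 1 h HGF and vehicle libraries were fitted (adjusted p = 0.00403). The HGF effect at 4 h exceeded that at 1 h by 0.93 ± 0.21 on the log2 scale (adjusted p = 0.00209).

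ZFAS1 (ENSG00000177410, chr20:49278178-49295738, plus strand), host of the SNORD12 snoRNAs, is transcribed from the opposite strand of the 5-prime end of ZNFX1, and its mouse counterpart is known from mammary gland development. After 4 h of HGF it reached 133, 135 and 124 CPM, against 114, 109 and 109 CPM in 4 h vehicle libraries. All HGF libraries were the higher ones. Its log2 fold change was 0.24 ± 0.058 (SE; adjusted p = 0.000536) with TMM factors and -0.047 ± 0.060 (adjusted p = 0.488) with library totals. At 1 h the difference of 0.12 ± 0.058 did not pass the test (adjusted p = 0.14), and did when only the 1 h HGF and vehicle libraries were fitted (adjusted p = 0.032).

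SNHG1 (ENSG00000255717, chr11:62851988-62855914, minus strand) is the host of SNORD22 and of a cluster of further box C/D snoRNAs, and it went in opposite directions at the 2 times. At 4 h it had 44.0, 41.1 and 40.5 CPM after HGF, against 35.5, 37.4 and 33.8 CPM in vehicle libraries. The 1 h levels were 31.2, 27.2 and 26.5 CPM after HGF, against 32.8, 31.8 and 33.0 CPM in vehicle libraries. HGF libraries were thus all above vehicle at 4 h and all below it at 1 h. SNHG1 had a log2 fold change of 0.24 ± 0.061 at 4 h (adjusted p = 0.00108) and of -0.20 ± 0.061 at 1 h (adjusted p = 0.0138), and the difference between the effects was 0.44 ± 0.086 (adjusted p = 6.58e-05). With library totals the 4 h value was -0.054 ± 0.063 (adjusted p = 0.444), while the difference between the effects remained past the threshold at 0.25 ± 0.089 (adjusted p = 0.017). The fall at 1 h lost its call without HGF 1 h replicate 2 (adjusted p = 0.072) or replicate 3 (adjusted p = 0.106).

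GAS5 (ENSG00000234741, chr1:173863900-173868882, minus strand), known for its accumulation in growth-arrested cells and as a decoy for the glucocorticoid receptor, was lower after HGF at both times. It had 81.1, 78.6 and 73.6 CPM in 4 h HGF libraries, against 98.8, 94.9 and 94.1 CPM in 4 h vehicle libraries. At 1 h it had 74.9, 72.9 and 70.5 CPM after HGF, against 86.3, 85.6 and 81.8 CPM in vehicle libraries. The groups did not overlap at either time. GAS5 fell by 0.30 ± 0.054 at 4 h (adjusted p = 1.06e-05) and by 0.22 ± 0.053 at 1 h (adjusted p = 0.00252) on the log2 scale, and the difference between the effects, -0.086 ± 0.076, did not pass the test (adjusted p = 0.357).

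SNHG5 (ENSG00000203875, chr6:85660950-85678748, minus strand), host of SNORD50B, was lower at 4 h. It had 111, 102 and 107 CPM after HGF, against 122, 123 and 126 CPM in vehicle libraries, a small difference in which all HGF libraries were the lower ones. SNHG5 fell by 0.21 ± 0.054 on the log2 scale (adjusted p = 0.000916). Its 1 h difference was -0.053 ± 0.054 (adjusted p = 0.568), with 110, 108 and 106 CPM after HGF and 115, 110 and 111 CPM in vehicle libraries.

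SNHG6 (ENSG00000245910, chr8:66921684-66926398, minus strand), host of SNORD87, was the member with no call in any of the 9 comparisons made with TMM factors. It had 50.7, 43.0 and 42.3 CPM in 4 h HGF libraries, against 49.3, 49.6 and 47.4 CPM in 4 h vehicle libraries. HGF replicate 1 lay above all vehicle libraries and the other two below them. SNHG6 thus had a log2 fold change of -0.11 ± 0.061 (adjusted p = 0.12), and without HGF 4 h replicate 1 it was -0.19 (adjusted p = 0.00679). With library totals it was -0.40 ± 0.063 (adjusted p = 1.9e-06). The 1 h difference was -0.068 ± 0.060 (adjusted p = 0.5).

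Of the hosts of box H/ACA snoRNAs, SNHG15 (ENSG00000232956, chr7:44983023-44986961, minus strand), which carries SNORA9 and is known as a short-lived RNA, had the largest rise of the 10 members. It stood at 35.2, 34.0 and 30.6 CPM in 4 h HGF libraries, against 13.9, 12.3 and 11.4 CPM in 4 h vehicle libraries. At 1 h it was already at 21.6, 19.6 and 18.8 CPM after HGF, against 10.1, 14.1 and 13.2 CPM in vehicle libraries. Every HGF library exceeded every vehicle library of its time. On the log2 scale the fold changes were 1.41 ± 0.10 at 4 h (adjusted p = 1.63e-12) and 0.68 ± 0.099 at 1 h (adjusted p = 6e-06), and SNHG15 was the 1 member higher at 1 h. The 4 h effect exceeded the 1 h effect by 0.73 ± 0.14 (adjusted p = 8.7e-05).

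SNHG12 (ENSG00000197989, chr1:28578538-28583132, minus strand), which carries SNORA16A, SNORA44 and SNORA61 and also the box C/D snoRNA SNORD99, is the least abundant member. It had 12.1, 13.5 and 12.3 CPM in 4 h HGF libraries, against 7.57, 7.55 and 6.61 CPM in 4 h vehicle libraries. At 1 h it had 5.48, 4.84 and 4.13 CPM after HGF, against 5.09, 5.66 and 5.69 CPM in vehicle libraries. The groups were far apart at 4 h and overlapped at 1 h. SNHG12 rose by 0.80 ± 0.099 on the log2 scale at 4 h (adjusted p = 2.11e-08), and its 1 h value was -0.20 ± 0.11 (adjusted p = 0.216). Its difference between the 4 h and 1 h effects, 1.00 ± 0.15, was the highest of the 10 (adjusted p = 8.17e-07).

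SNHG7 (ENSG00000233016, chr9:136721366-136728184, minus strand), host of SNORA17A and SNORA17B, fell at both times. It had 23.4, 23.1 and 19.6 CPM in 4 h HGF libraries, against 33.3, 33.5 and 34.7 CPM in 4 h vehicle libraries. The 1 h levels of SNHG7 were 22.9, 19.7 and 19.0 CPM after HGF, against 32.5, 26.0 and 29.5 CPM in vehicle libraries. No HGF library reached the lowest vehicle library of its time. In log2 fold change these falls were -0.62 ± 0.084 at 4 h (adjusted p = 2.26e-07) and -0.52 ± 0.082 at 1 h (adjusted p = 1.57e-05). The difference between the effects, -0.10 ± 0.12, did not pass the test (adjusted p = 0.495).

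SNHG8 (ENSG00000269893, chr4:118278709-118279823, plus strand), host of SNORA24, fell likewise. It had 15.9, 14.2 and 13.9 CPM in 4 h HGF libraries, against 22.1, 23.0 and 22.3 CPM in 4 h vehicle libraries. SNHG8 stood at 1 h at 17.1, 15.3 and 15.3 CPM after HGF, against 22.0, 19.0 and 19.3 CPM in vehicle libraries. The groups did not overlap at either time. The log2 fold change was -0.62 ± 0.085 at 4 h (adjusted p = 1.56e-07) and -0.34 ± 0.082 at 1 h (adjusted p = 0.00211). The larger fall at 4 h, by -0.28 ± 0.12, lay just past the threshold (adjusted p = 0.0479) and lost its call with DESeq2 (adjusted p = 0.0908), with DESeq2's size factors (0.0804), without the filter on low counts (0.0972), without robust estimation (0.0544) and in 9 of 12 fits that left out 1 library.

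At 1 h after HGF SNHG15 was higher and SNHG7, SNHG8, GAS5 and SNHG1 were lower, while SNHG16, ZFAS1, SNHG12, SNHG5 and SNHG6 did not pass the test. These 1 higher and 4 lower members stood beside 21% of all genes called (13.8% higher, 7.16% lower). HGF and vehicle libraries of 1 h did not overlap for 8 of the 10 members and for 35.7% of all genes. With library totals 7 members were lower, SNHG12, SNHG5 and SNHG6 (log2 fold changes of -0.30, -0.15 and -0.17) being added, and SNHG15 was still higher, where 21.4% of all genes were lower and 9.07% higher. Between the 4 h and 1 h effects of HGF, 4 members differed upward (SNHG12, SNHG16, SNHG15 and SNHG1) and 1 downward (SNHG8), against 53.2% of all genes called (26.8% higher, 26.4% lower). With library totals this became 4 upward and 5 downward, where 18.6% of all genes differed upward and 37.9% downward. Fitted without the MSP libraries, SNHG5 passed as well, at -0.16 (adjusted p = 0.0197).

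**Figure D2:**
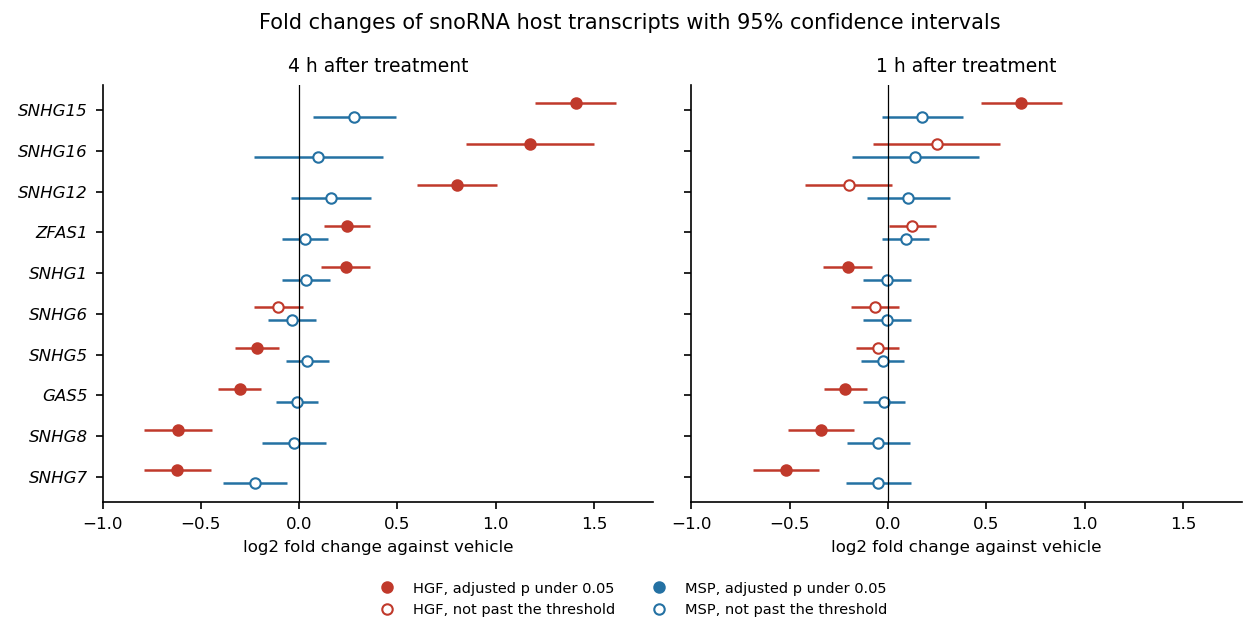
Log2 fold change against vehicle at 4 h (left) and 1 h (right) for HGF (red) and MSP (blue), with 95% confidence intervals as bars; filled points passed an adjusted p of 0.05. HGF values ran from -0.62 to 1.41 at 4 h and from -0.52 to 0.68 at 1 h, no MSP value passed, and the 4 h rises of SNHG1 and ZFAS1 turn to -0.054 and -0.047 with library totals.

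MSP moved none of the 10 past the threshold at either time. In 4 h MSP libraries SNHG15 had 15.2, 15.9 and 14.6 CPM and SNHG7 30.6, 28.2 and 28.0 CPM, against 13.9, 12.3 and 11.4 CPM of SNHG15 and 33.3, 33.5 and 34.7 CPM of SNHG7 in 4 h vehicle libraries. Neither pair of groups overlapped, nor did those of SNHG12 (log2 fold change 0.16 ± 0.10, adjusted p = 0.558), which made 3 members of 10. The share of all genes without overlap is not given here for MSP, and the differences were small. SNHG15 had a log2 fold change of 0.28 ± 0.10 (adjusted p = 0.229) and SNHG7 one of -0.22 ± 0.080 (adjusted p = 0.206). By edgeR 0 of 10 were called at 4 h, where 1.07% of all genes were, and DESeq2 called 0. An unadjusted p under 0.05 was reached by 2 members, SNHG7 and SNHG15, and the share of all genes at that level is not given here. Without the filter on low counts SNHG15 passed (adjusted p = 0.0416), and with only the 4 h MSP and vehicle libraries in the fit SNHG7 did (adjusted p = 0.0256). At 1 h edgeR called 0 of 10, where 0.834% of all genes were called, 0 had an unadjusted p under 0.05 and DESeq2 called 0. Across members the 95% intervals of the MSP fold changes spanned -0.39 to 0.49 at 4 h and -0.21 to 0.46 at 1 h on the log2 scale, which bounds the size of a response that these libraries could have missed. The difference between the 4 h and 1 h effects of MSP was called for 0 of 10 members (0.322% of all genes), with 0 at an unadjusted p under 0.05 and 0 by DESeq2.

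Set directly against each other, the ligands differed for 9 of 10 members at 4 h, with 5 higher after HGF (SNHG15, SNHG16, SNHG12, ZFAS1 and SNHG1) and 4 lower (SNHG8, SNHG7, GAS5 and SNHG5), where 66.4% of all genes were called (32.7% higher, 33.8% lower). Libraries of the 2 ligands did not overlap for 9 members at 4 h and 5 at 1 h, and for 70.6% and 28.8% of all genes. Compared with MSP, SNHG15 was higher by 1.13 ± 0.096, SNHG16 by 1.08 ± 0.15 and SNHG12 by 0.64 ± 0.097 in log2 fold change (adjusted p = 8.65e-11, 2.01e-05 and 8.95e-07). SNHG16 stood at 79.8, 105 and 85.8 CPM in 4 h HGF libraries and at 41.6, 42.2 and 44.2 CPM in 4 h MSP libraries. The rises of SNHG1 (0.20) and ZFAS1 (0.21) over MSP at 4 h turned to -0.099 and -0.086 with library totals. At 1 h, 1 member was higher after HGF than after MSP (SNHG15) and 5 were lower (SNHG7, SNHG8, SNHG12, SNHG1 and GAS5), where 17.7% of all genes were called (11.4% higher, 6.36% lower). Without HGF 1 h replicate 3 that 1 h count fell to 3, as SNHG1, SNHG8 and SNHG12 lost their calls. Leaving out 1 library ended the call of SNHG12 in 5 of 6 fits, that of SNHG1 in 3 and that of SNHG8 in 2. With only the 1 h HGF and MSP libraries in the fit, SNHG1 (adjusted p = 0.0781) and SNHG12 (adjusted p = 0.107) did not pass, nor did SNHG12 without the filter on low counts (adjusted p = 0.0507). These comparisons share the HGF libraries with those against vehicle, and the HGF and MSP comparisons with vehicle share the vehicle libraries.

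Vehicle cells themselves changed between the times. SNHG12 was higher at 4 h, with 7.57, 7.55 and 6.61 CPM in 4 h vehicle libraries against 5.09, 5.66 and 5.69 CPM in 1 h vehicle libraries, a log2 fold change of 0.40 ± 0.10 (adjusted p = 0.00595). GAS5 was higher too, by 0.18 ± 0.053 (adjusted p = 0.0134), a call lost without vehicle 1 h replicate 3 (adjusted p = 0.0797) or vehicle 4 h replicate 1 (adjusted p = 0.0711). These 2 higher and 0 lower of 10 stood beside 20.9% of all genes called (10.9% higher, 9.99% lower), and DESeq2 called 2. A further count, 6 members at an unadjusted p under 0.05, has no share of all genes beside it and is no result about the members. The 4 h and 1 h vehicle libraries did not overlap for 8 members, and for 37.7% of all genes. With only the vehicle libraries in the fit 5 members passed, SNHG5, SNHG7 and ZFAS1 being added. The share of all genes that passed in that fit is not given here, so the members cannot be set against it.

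The scaling matters for the size of every HGF value at 4 h. TMM factors ran from 0.841 to 0.860 in 4 h HGF libraries and were near 1.04 in 4 h vehicle libraries, so that library totals lower each 4 h fold change of a member by a like amount. Relative to the median of all genes under library totals, SNHG1 stood at 0.30 and ZFAS1 at 0.30, SNHG15 at 1.47 and SNHG7 at -0.56 on the log2 scale. SNHG15, SNHG16 and SNHG12 were above 0, and SNHG7, SNHG8, GAS5 and SNHG5 below 0, under both scalings.

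**Figure D3:**
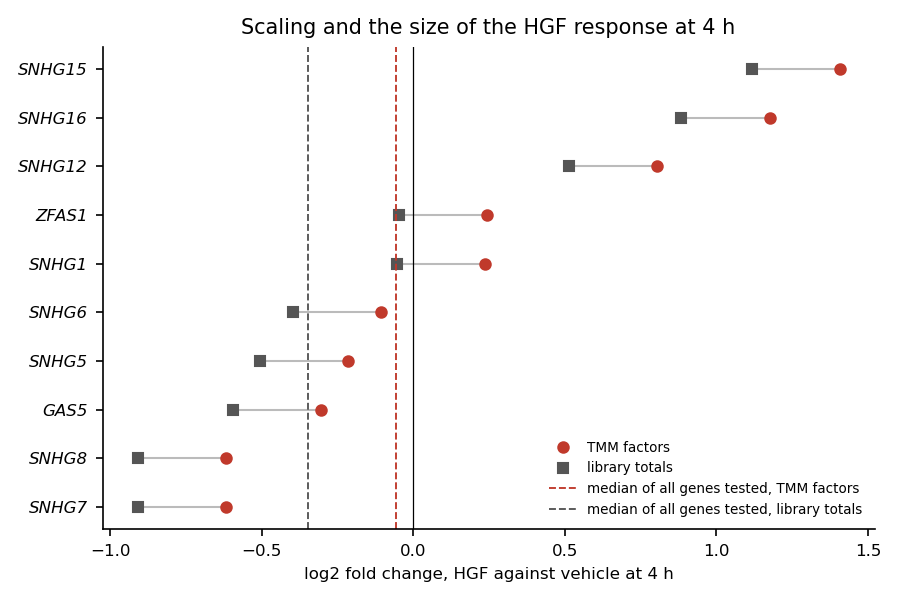
Log2 fold change of each member, HGF against vehicle at 4 h, with TMM factors (circles) and with library totals (squares); dashed lines are the medians of all 16794 genes, -0.059 and -0.35. SNHG1 and ZFAS1 lie at 0.24 each with TMM factors and at -0.054 and -0.047 with library totals, and no other member changes sign.

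Some members share exonic bases with a gene on the other strand, and the sources used here do not give whether the counting used strand. These counts are uncertain to that extent. ZFAS1 shares 249 bases with ZNFX1, which rose after HGF by 0.66 ± 0.041 at 4 h and 0.35 ± 0.041 at 1 h (adjusted p = 5.77e-15 and 4.27e-08). SNHG16 shares 1639 bases with ENSG00000284526, a gene at 0.335 to 1.24 CPM that fell by 1.35 ± 0.27 at 4 h (adjusted p = 4.5e-05). SNHG6 shares 365 bases with MCMDC2, which was at 0.761 to 2.65 CPM and fell by 0.97 ± 0.26 at 4 h (adjusted p = 0.00156). SNHG12 and TRNAU1AP share 8 bases, GAS5 and GAS5-AS1 42 bases. SNHG7 shares 1094 bases with DIPK1B, which had 5 counts in all 18 libraries together.

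The snoRNAs themselves were not seen in these libraries. In GENCODE 29 the members enclose 26 snoRNA genes of the table on their own strand, in 9 of the 10 hosts. Every one of them was listed with 0 counts in every library. By counting error alone this allows up to 3 counts, or 0.0619 to 0.0982 CPM, in a library. No snoRNA gene lies inside GAS5 in that annotation. Of 36 snoRNA names listed for the members, 25 had a row in the table, so a missing entry does not show a missing snoRNA. Of the 26, 22 overlap exons that the annotation gives to the host, as SNORD22 (126 bases in SNHG1) and SNORA24 (131 bases in SNHG8) do. The counting of reads shared with a host exon was not examined, so the counts of 0 set no limit on snoRNA abundance. The mature snoRNAs were thus not measured here.

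Related genes were described by count, to be read against the 33.1% of all genes called higher and 34.8% called lower 4 h after HGF with TMM factors, and 21.2% higher and 52% lower with library totals. Of 13 other non-coding snoRNA hosts tested, 1 rose 4 h after HGF (SNHG17, log2 fold change 1.15 ± 0.087) and 6 fell, among them SNHG32 (-0.65 ± 0.061), SNHG11 (-0.82 ± 0.11) and DANCR (-0.53 ± 0.074), with a median of -0.30 beside -0.059 for all genes. SNHG17 averaged 34.6 ± 2.8 CPM in 4 h HGF libraries and 15.6 ± 1.2 CPM in 4 h vehicle libraries (SD, n = 3 each). Of 32 protein-coding hosts, most of them genes of ribosomal proteins and translation factors, 12 rose and 5 fell, against 33.1% and 34.8% of all genes, with a median of 0.062. With library totals 6 rose and 23 fell, with a median of -0.23. Those with the smallest adjusted p were HSPA8, a chaperone (1.97 ± 0.050), NOP56 (1.83 ± 0.047) and DKC1 (1.55 ± 0.044), both core proteins of snoRNA particles, and GNL3, a nucleolar GTPase (1.45 ± 0.055). After 4 h of MSP the same 4 genes were the 4 protein-coding hosts called higher, by 0.20 to 0.31 on the log2 scale. Of all genes, 1.07% were called there in either direction. In vehicle cells 28 of the 32 were higher at 4 h than at 1 h, under both scalings, where 10.9% of all genes were higher with TMM factors and 8.77% with library totals.

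Proteins that build snoRNA particles mostly rose. Of 17 core and assembly proteins, 14 rose 4 h after HGF and 1, PIH1D1, fell (-0.17), with a median of 0.75; with library totals 14 rose and 3 fell. NOP56 averaged 561 ± 19 CPM in 4 h HGF libraries and 158 ± 7.9 CPM in 4 h vehicle libraries, and NOLC1, a nucleolar chaperone of these particles, averaged 440 ± 9.6 CPM in 4 h HGF libraries and 153 ± 10 CPM in 4 h vehicle libraries (SD, n = 3 each). At 1 h 4 of the 17 were higher with TMM factors (NOLC1, NOP58, DKC1 and SNU13), where 13.8% of all genes were higher and 7.16% lower. With library totals 3 were higher and 3 lower at 1 h, where 9.07% of all genes were higher and 21.4% lower. After 4 h of MSP NOP56, DKC1 and NOLC1 were higher, by 0.31, 0.28 and 0.22 on the log2 scale, where 1.07% of all genes were called. Of 13 factors of nonsense-mediated decay, 8 rose 4 h after HGF, among them EIF4A3 (0.81 ± 0.046), RBM8A (0.63 ± 0.043) and SMG5 (0.70 ± 0.050), and 2 fell, UPF3B (-0.72) and SMG9 (-0.33), with a median of 0.46. With library totals 7 rose and 6 fell. The 10 of 13 called with TMM factors stood beside 67.9% of all genes. After 4 h of MSP 0 of the 13 were called, where 1.07% of all genes were.

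**Figure D4:**
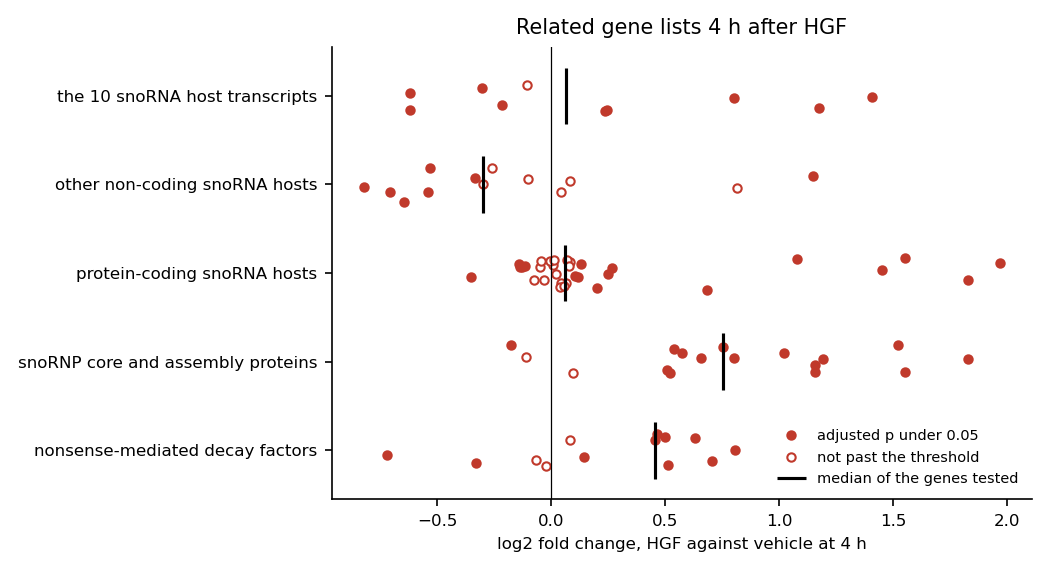
Log2 fold change, HGF against vehicle at 4 h with TMM factors, of each gene tested in the 10 snoRNA host transcripts and in 4 lists of related genes; filled points passed an adjusted p of 0.05 and vertical bars are list medians. The members spread over both signs (median 0.064), and most snoRNP proteins lie above 0 (median 0.75, or 0.46 with library totals).

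As a description, the genes outside the 10 whose log2 CPM followed each member most closely over the 18 libraries were named, from 8985 genes with a mean of at least 10 CPM. The libraries fall into 6 groups and the points of a group share its treatment, and no test was made. SNHG15 was most like ESRP2, STX1A and PPRC1 (Pearson's r of 0.984, 0.981 and 0.981), SNHG16 most like CELF1, ZNF207 and EPS15 (0.983, 0.963 and 0.962), and SNHG12 most like ABCF3, MRPS26 and AIMP2 (0.983, 0.983 and 0.982). SNHG8 was closest to SUMF2 and to 2 other snoRNA hosts, DANCR and SNHG29 (0.951, 0.951 and 0.948). SNHG5 was closest to VSIG2, FXYD3 and RPL13A (0.956, 0.954 and 0.949). SNHG6 had the lowest values, with RPS20, SURF1 and PSME1 (0.863, 0.857 and 0.852). SNHG7 was most like ZNF703, S1PR5 and FRAT2 (0.931, 0.922 and 0.915), and GAS5 most like PPIC, EFNA1 and CROCCP2 (0.937, 0.932 and 0.930). ZFAS1 was closest to RHOT2, RHOD and SLC35A2 (0.940, 0.937 and 0.928), and SNHG1 to RNF220, TARBP1 and TRAF2 (0.941, 0.937 and 0.936).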

How the data were processed

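RNA was measured in 18 libraries of BxPC-3 cells prepared with an mRNA kit and sequenced on 2 lanes each, per the labels' protocols. The authors deposited 1 table of raw read counts per gene, with 58395 Ensembl identifiers. Per the submitters' processing notes the tools were STAR, featureCounts and Subread; the sources used here give no version, genome build, annotation or strand setting. The deposited counts showed no duplicated library, and 0 per-sample columns were left unused. Of the identifiers, 57754 were found in the table of gene names and 58275 in GENCODE 29 (GRCh38), from which lengths, positions and overlaps were taken.

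Genes were kept by filterByExpr (minimum count 10, minimum total 15), which left 16794. edgeR 4.0.16 in R 4.3.3, with TMM factors, fitted 1 mean per group over all 18 libraries (12 residual degrees of freedom, biological coefficient of variation 5.23%). Robust quasi-likelihood tests were adjusted by Benjamini and Hochberg over every gene kept, the threshold was 0.05, and every adjusted p comes from this fit unless another setting is named. Levels are CPM, counts scaled to a common depth with the TMM factors; summed marker levels use library totals. Fold changes are the first-named group over the second, errors are SE or SD as marked, and intervals are at 95%. Limits for 0 counts use 3 counts and cover counting error only. Alternatives were DESeq2 1.42.0, its size factors, library totals, no filter, no robust estimation, only the compared groups, a replicate block and each library left out. Scripts were tested on simulated counts in which few genes changed, in both directions alike, so these tests do not bear on the choice of scaling.

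The 10 members, the related lists and the markers were chosen with earlier results of these data known. All members were named; of each related list, the called genes with the smallest adjusted p (at most 4 per comparison), and for each member the 3 most alike genes. The values of 1 gene that this rule names are not reported here. UPF3B, PIH1D1, ZNFX1, ENSG00000284526 and MCMDC2 were named outside that rule, after their values were seen. Promoter sequences are from RefSeq, and 8 members had an entry.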

Additional observations from a re-analysis of the deposited data

Results flagged for a closer look

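The effect of HGF against vehicle differed between 4 h and 1 h for 5 members by the test of the difference itself, in edgeR's quasi-likelihood fit with Benjamini-Hochberg adjustment over all genes. The difference, 4 h effect minus 1 h effect, was 1.00 for SNHG12, 0.93 for SNHG16, 0.73 for SNHG15 and 0.44 for SNHG1 on the log2 scale, with adjusted p of 8.17e-07, 0.00209, 8.7e-05 and 6.58e-05. These 4 stayed past the threshold with library totals, at 0.81, 0.74, 0.54 and 0.25. For SNHG8 it was -0.28 (adjusted p = 0.0479), a call that DESeq2 did not make (adjusted p = 0.0908). In the same test 53.2% of all genes were called.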

How the results depend on the processing

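The count of members called was the same or within 1.5 times of it under most alternatives, with these exceptions. With library totals, 8 members were called 1 h after HGF (1 higher, 7 lower) in place of 5, and 9 for the 4 h minus 1 h difference of the HGF effect (4 higher, 5 lower) in place of 5. For MSP at 4 h, 1 member was called without the filter on low counts and 1 with only the groups compared, in place of 0. For vehicle at 4 h against 1 h, 5 were called with only the groups compared, in place of 2. Apart from the main fit and library totals, the shares of all genes called are not given here. Leaving out 1 library gave 3 to 6 members for HGF against MSP at 1 h and 1 to 3 for vehicle at 4 h against 1 h, the lowest without HGF 1 h replicate 3 and without vehicle 1 h replicate 3 or vehicle 4 h replicate 1.

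Signs turned for small values. With library totals SNHG1 and ZFAS1 stood at -0.054 and -0.047 for HGF against vehicle at 4 h and at -0.099 and -0.086 for HGF against MSP at 4 h, ZFAS1 at -0.060 for HGF against MSP at 1 h and -0.070 for the difference of the HGF effect, and SNHG15 at -0.016 for vehicle over time. Without the filter SNHG6 had a difference of the HGF effect of 0.0008 and SNHG15 a vehicle change of -0.0052, and the SNHG15 vehicle change was -0.0061 with only the groups compared. Of the fold changes refitted without 1 library, 36 turned sign, all of members not called in that comparison. Their ranges were SNHG1 -0.036 to 0.019, SNHG5 -0.10 to 0.035, SNHG6 -0.054 to 0.039, SNHG7 -0.13 to 0.030, SNHG8 -0.13 to 0.038, SNHG16 -0.072 to 0.25, and GAS5 -0.048 to 0.010 for MSP against vehicle at 1 h, and SNHG8 -0.086 to 0.020, GAS5 -0.077 to 0.053, ZFAS1 -0.013 to 0.075 for MSP against vehicle at 4 h. The ranges were also SNHG5 -0.094 to 0.041, SNHG16 -0.0057 to 0.31, ZFAS1 -0.056 to 0.10 for HGF against MSP at 1 h, SNHG6 -0.12 to 0.0094 for the difference of the HGF effect, and SNHG6 -0.072 to 0.021, SNHG8 -0.060 to 0.11, SNHG12 -0.003 to 0.11, SNHG16 -0.15 to 0.17, GAS5 -0.058 to 0.073, ZFAS1 -0.14 to 0.014 for the difference of the MSP effect, SNHG15 -0.12 to 0.10 for vehicle over time.

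Pairing of the samples by replicate number was at most weak. Same-numbered libraries correlated at -0.065 to 0.12 in their deviations from the group means, over 0.1 in 1 of 45 pairs. Their median was 0.031, beside -0.013 for other pairs, and 14 of 18 libraries correlated best with their own number. The main fit used no pairing. With the replicate block 5 members were called 1 h and 9 members 4 h after HGF, 0 after MSP at either time, and 3 for vehicle over time, SNHG7 being added. Depth limits SNHG12 most, which had 162 to 376 counts a library, and 3 libraries a group limit small changes.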

Other observations

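SNHG16 had 41.3, 59.4 and 39.0 CPM in the 3 libraries of MSP at 1 h, against 40.6, 43.5 and 42.5 CPM in 1 h vehicle libraries, so that MSP 1 h replicate 2 stood apart from the other libraries of both groups. Replicates 2 and 3 of MSP at 1 h also had the highest chi-square per degree of freedom of the 18 replicate pairs over all genes, 19.3, the lowest being 2.81. Without any 1 of the 6 libraries, SNHG16 changed by -0.072 to 0.25 on the log2 scale for MSP against vehicle at 1 h, with no call.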
